A study of Mus musculus with 2 samples.

Results

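The HSP90 and HSP70 chaperone system is described here through 10 genes, chosen by symbol from the 32285 genes counted: the cytosolic HSP90 genes Hsp90aa1 and Hsp90ab1 with the HSP90 activator Ahsa1, the HSP70 genes Hspa8, Hspa1a and Hspa1b with their partners Hsph1 and Dnajb1, and the mitochondrial chaperonin genes Hspd1 and Hspe1. They were followed in Lineage- cKit+ marrow cells, a fraction enriched for blood stem and progenitor cells, taken from the femora and tibiae of C57BL/6 mice. One single-cell library came from the knockout (Trsp f/f:Mx1-Cre) and one from the control (Trsp f/f). Trsp encodes the transfer RNA that carries selenocysteine, and Mx1-Cre is an interferon-inducible recombinase that pI-pC switches on in blood-forming and other cells. Both genotypes received pI-pC at 500 µg per mouse in 3 doses on alternate days and were killed 9 weeks after the last dose. The series text names 7 weeks after birth for the injections, in wording that leaves the exact age unclear. Cells were frozen and thawed before droplet capture, and how many mice each library holds is not stated in the sources used here.

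HSP90 and HSP70 are ATP-driven chaperones that bind unfolded or partly folded proteins and release them after rounds of ATP hydrolysis. Co-chaperones set the pace: J-domain proteins such as Dnajb1 and the activator Ahsa1 speed the hydrolysis of HSP70 and HSP90, and Hsph1 helps HSP70 exchange its nucleotide. Hspa8 and Hsp90ab1 are expressed at rest, whereas Hspa1a, Hspa1b and, in part, Hsp90aa1 are induced by heat shock factor 1, which binds heat shock elements in promoters. In the erythroid lineage HSP70 is known, from human erythroblasts, to shield the transcription factor GATA1 from caspase cleavage.

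After filtering, 6640 knockout and 8046 control cells remained, with 138274029 and 166447123 UMIs (unique molecular identifiers, each standing for one captured mRNA molecule). Median depth was 20744 UMIs per knockout cell and 20352 per control cell, and the median mitochondrial share was 4.62% and 3.78%. Kit, the sorting marker, stood at 114 CPM (a gene's UMIs scaled to a fixed library total) in knockout cells and 98.8 CPM in control cells, while the lineage genes Cd3e and Ly6g had 1 and 5 UMIs in the knockout and 0 and 8 in the control. All 5 selenoprotein mRNAs used to check the genotype were lower in the knockout, at log2 ratios of -3.34 for Selenoh to -1.65 for Gpx4. The libraries shared 39 cell barcodes. Clustering gave 23 clusters, 13 marker-named classes and 8 classes with at least 100 cells in each library, among them a multipotent or lymphoid-primed progenitor class, called multipotent-like here. Unnamed clusters held 29.0% of knockout and 14.6% of control cells. The largest cluster of the neutrophil progenitor-like class was cluster 19 in the knockout and cluster 5 in the control. That of the basophil or mast cell-like class was cluster 16 in the knockout and cluster 12 in the control. One of the unnamed clusters, of low-UMI barcodes, held 1301 knockout and 172 control cells. With 1 library per genotype there is no test of genotype: 95% intervals cover counting error only, and mouse-to-mouse variation cannot be told apart from genotype.

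Ahsa1 stood apart among the members. It encodes AHA1, the co-chaperone that stimulates the HSP90 ATPase, and lies at chr12:87266479-87273998 on the plus strand (GRCm38). Over all kept cells it had 12348 UMIs, or 89.3 CPM, in the knockout and 6824 UMIs, or 41.0 CPM, in the control, a 2.18-fold ratio (log2 1.12, interval 1.08 to 1.17). It ranked 16 from the highest among 6096 measured genes, those with at least 20 CPM in 1 library and 50 UMIs over both. It was the 1 member of 10 at least 1.5-fold higher in the knockout, against 1.02% of all measured genes, whose median log2 ratio was 0.084. Without the low-UMI cluster the log2 ratio of Ahsa1 was 1.12.

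Every compared class showed the same direction for Ahsa1. Across the 8 classes its level spanned 51.7 to 99.6 CPM in the knockout, against 22.9 to 45.2 CPM in the control, so the lowest knockout class lay above the highest control class. The monocyte progenitor-like class had 99.6 CPM in the knockout and 43.9 CPM in the control, and the megakaryocyte progenitor-like class 62.8 and 37.6 CPM. Their log2 ratios, 1.18 (1.11 to 1.25) and 0.74 (0.36 to 1.13), were the highest and lowest of the 8. All 8 reached 1.5-fold. The share of measured genes that did so was 0.699% in hematopoietic stem cell-like, 1.1% in multipotent-like, 1.55% in neutrophil progenitor-like and 3.01% in maturing neutrophil-like cells. It was 1.34% in monocyte progenitor-like, 5.44% in dendritic cell-like, 1.84% in basophil or mast cell-like and 3.28% in megakaryocyte progenitor-like cells. Hematopoietic stem cell-like cells gave 55.6 CPM in the knockout and 30.2 CPM in the control.

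The Ahsa1 difference was also present at matched depth. When each cell was thinned to 5000 UMIs, 33.0% of 5513 knockout cells and 16.7% of 7769 control cells held an Ahsa1 UMI, against 66.1% and 51.5% unthinned. In cells of 10000 to 20000 UMIs the level was 58.7 CPM in the knockout and 35.2 CPM in the control, and above 40000 UMIs it was 114 and 46.0 CPM. The genes beside it varied. Vipas39, whose start is 0.223 kb away, had a log2 ratio of 0.10, below the limit for measured genes, and Sptlc2 had 0.035. Also below that limit, Tmed8, 66.0 kb away, had 0.47 (0.32 to 0.62) and Noxred1, 27.7 kb away, -0.58 (-1.11 to -0.066). A part of the region in the Ahsa1 difference was not tested. The Fano factor (variance over mean) of Ahsa1 in thinned cells was 1.04 in the knockout and 0.996 in the control, at means of 0.407 and 0.183 UMIs. At means this low it cannot show whether cells were alike in Ahsa1.

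One transcript shares sequence with Ahsa1 and was counted separately. Of the 50-base words in the last 500 bases of Ahsa1 transcripts, 19.7% also occur in the lincRNA Gm49207. Gm49207 had 138 UMIs in the knockout and 438 in the control (log2 -1.40), the opposite direction. Summed, the pair gave 12486 UMIs in the knockout and 7262 in the control, a 2.07-fold ratio.

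**Figure D1:**
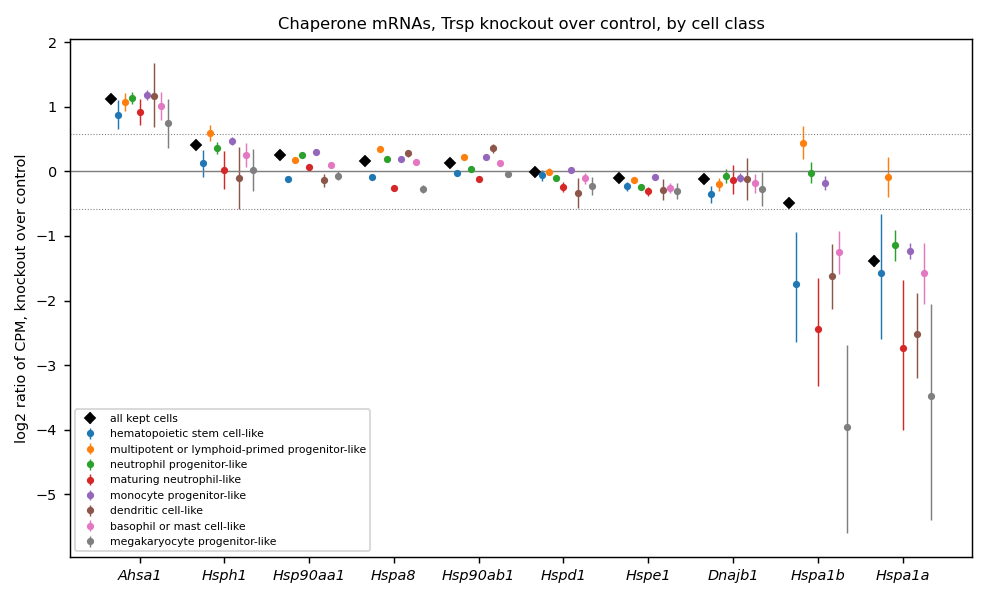
Log2 ratio of CPM, knockout over control, for the 10 members (x axis), over all kept cells (black diamonds) and in 8 marker-named classes (colored points); bars are 95% counting intervals and dotted lines mark 1.5-fold. Ahsa1 lies above the upper dotted line in all 8 classes, and Hspa1a below the lower one in 7.

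The HSP90 genes themselves differed far less. Hsp90ab1, the constitutive HSP90 beta, had 3690 CPM in the knockout and 3359 CPM in the control (log2 0.14), and Hsp90aa1, the inducible HSP90 alpha, 1710 and 1431 CPM (log2 0.26). The ratios of both took opposite signs between classes: Hsp90aa1 was lowest at -0.14 in the dendritic cell-like class and highest at 0.31 in the monocyte progenitor-like class, and Hsp90ab1 was lowest at -0.12 in the maturing neutrophil-like class and highest at 0.36 in the dendritic cell-like class. The dendritic value of Hsp90aa1 was 0.22 when cells were gated one by one on markers. In hematopoietic stem cell-like cells Hsp90aa1 had 1123 CPM in the knockout and 1217 CPM in the control (log2 -0.12), which became 0.022 with predicted doublets kept and 0.018 at a finer clustering. Depth also changed the sign: in cells of 10000 to 20000 UMIs the log2 ratio was -0.12 for Hsp90aa1 and -0.060 for Hsp90ab1, and above 40000 UMIs 0.48 and 0.23.

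Early erythroid-like cells had the highest HSP90 levels of the 13 named classes, though in the control Hsp90ab1 overlapped monocyte progenitor-like cells within counting error. These 107 knockout and 74 control cells, too few in the control for the class comparison, held 4611 and 2525 CPM of Hsp90aa1 and 4931 and 3608 CPM of Hsp90ab1. The same cells led both libraries for Ahsa1, with 149 CPM in the knockout and 51.3 CPM in the control (overlapping the next class there), for Hsph1 with 225 and 157 CPM, and for Hspa8 with 3080 and 2770 CPM. Together the 10 members took 1.58% of erythroid-like UMIs in the knockout and 1.12% in the control, against 0.890% and 0.807% over all cells. Mature B or plasma-like cells were lowest, at 0.273% and 0.217%.

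The balance of the HSP90 pair differed between cell types. Hsp90ab1 outnumbered Hsp90aa1 by 2.16 UMIs to 1 in the knockout and 2.35 to 1 in the control over all cells. In erythroid-like cells the ratio was 1.07 in the knockout and 1.43 in the control, and in maturing neutrophil-like cells 2.65 and 3.01. A UMI marks a transcript's 3′ end and is not scaled by gene length. For Hsp90aa1 24.7% of 3′ words recur in other genes, the pseudogene Gm12346 first, against 2.25% for Hsp90ab1.

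For HSP90 alpha, the order of classes depended on the library. After erythroid-like cells, Hsp90aa1 was next highest in monocyte progenitor-like cells in the knockout (1877 CPM). In the control, megakaryocyte progenitor-like (1534 CPM) and monocyte progenitor-like cells (1519 CPM) came next, with overlapping intervals. Of the 12 neighbouring pairs in that order, 5 had overlapping intervals in the knockout and 6 in the control.

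**Figure D2:**
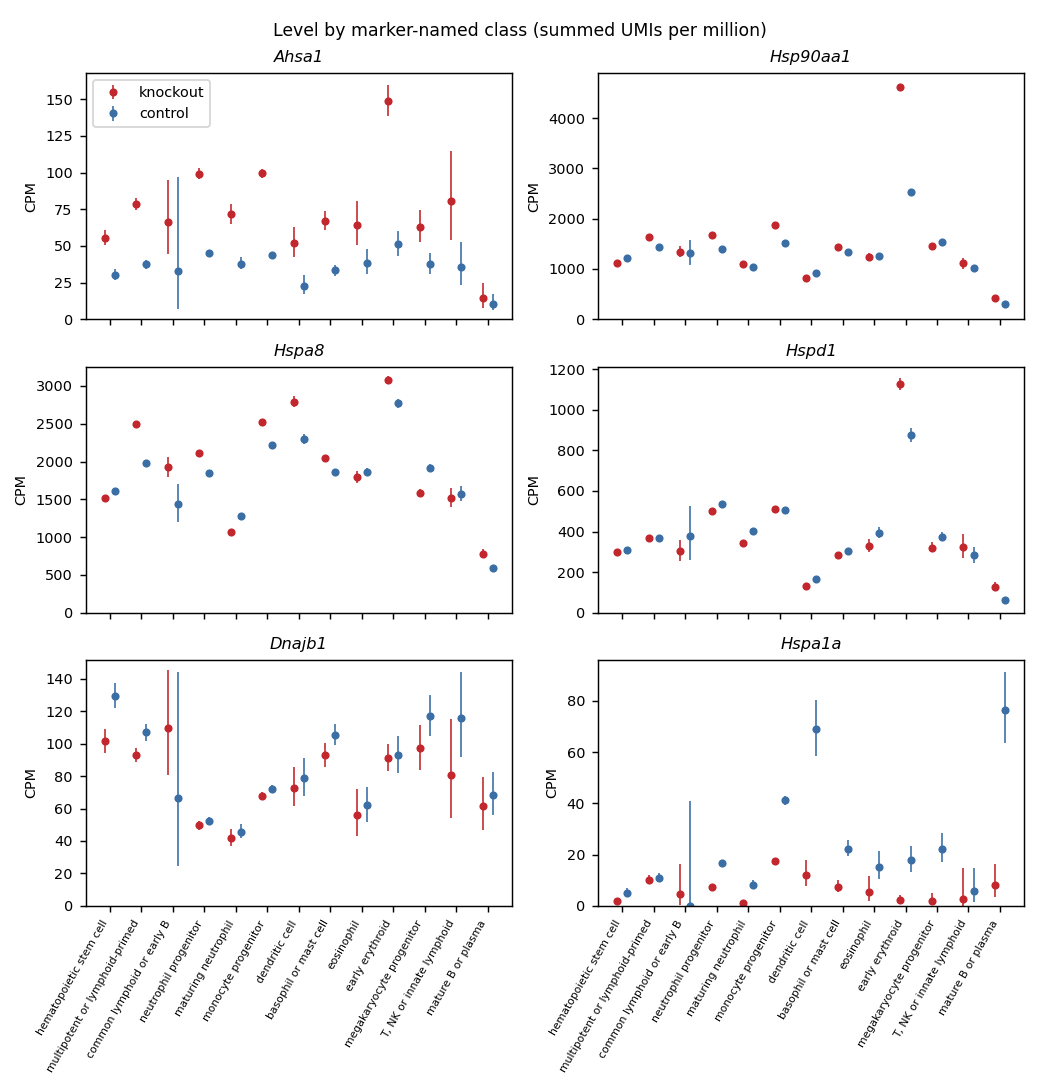
Level in CPM (y axes, starting at 0) of 6 members in the 13 marker-named classes (x axis), knockout left of control; bars are 95% Poisson intervals. Hsp90aa1, Hspd1 and Ahsa1 are highest in early erythroid-like cells of both libraries, while Hspa1a reaches 76.6 CPM in control mature B or plasma-like cells and at most 17.5 CPM in any knockout class.

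The inducible HSP70 genes gave the opposite result to Ahsa1. Hspa1a had 1333 UMIs, or 9.64 CPM, in the knockout and 4180 UMIs, or 25.1 CPM, in the control, a log2 ratio of -1.38 (-1.47 to -1.29). It was the 1 member of 10 at least 1.5-fold lower, against 0.607% of measured genes, and ranked 15 from the lowest. Hspa1b, its near-identical neighbour, had 2587 UMIs, or 18.7 CPM, in the knockout and 4368 UMIs, or 26.2 CPM, in the control, with a log2 ratio of -0.49 (-0.56 to -0.42). Both counted as measured only through the control library, since neither reached 20 CPM in the knockout.

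Hspa1a and Hspa1b lie on the minus strand of chromosome 17, at chr17:34969190-34972156 and chr17:34956436-34959238, 9.95 kb apart. The 250 bases before their starts are shown because they lie where heat shock factor 1 is known to act and hold a match to its element. Capitals mark the 2-unit element, GAANNTTC or TTCNNGAA on either strand (RefSeq, GRCm38.p6, minus strand, 5′ to 3′; chr17:34972157-34972406 and chr17:34959239-34959488).
Hspa1a: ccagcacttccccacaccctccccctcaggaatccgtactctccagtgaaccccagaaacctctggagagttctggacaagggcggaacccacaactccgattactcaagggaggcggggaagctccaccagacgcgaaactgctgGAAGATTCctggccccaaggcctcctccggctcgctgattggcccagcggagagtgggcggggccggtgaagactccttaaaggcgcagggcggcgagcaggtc
Hspa1b: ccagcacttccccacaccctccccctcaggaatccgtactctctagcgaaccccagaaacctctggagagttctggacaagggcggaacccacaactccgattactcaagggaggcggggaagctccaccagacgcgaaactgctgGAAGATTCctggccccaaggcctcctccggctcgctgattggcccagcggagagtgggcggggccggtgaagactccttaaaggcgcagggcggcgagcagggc
The 2 stretches are identical at 247 of 250 positions, and the 1 match in each starts at position -104. A 2-unit match occurs in 15.1% of the 32851 promoter windows of 300 bases in the table, so its presence here is a description and not a binding site.

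Despite that identity the pair was separable in the counts. None of the 50-base words in the last 500 bases of either transcript recurs in another gene. The UMI ratio of Hspa1b over Hspa1a was 1.94 (1.82 to 2.07) in the knockout and 1.04 in the control, where the interval ended at 1.09. Across the 16 class sums (8 classes in 2 libraries) the CPM of the pair had a Pearson correlation of 0.97, points that share library and depth.

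By class, Hspa1a was at least 1.5-fold lower in 7 of 8 and Hspa1b in 5 of 8, although each was measured in only 4. Among the classes where it was measured, Hspa1a was lower in 4 of 4 and Hspa1b in 3 of 4. No knockout class reached 20 CPM of Hspa1a, so those 4 were measured only through the control, and their direction was fixed in advance. The same limit held for Hspa1b in the megakaryocyte progenitor-like and basophil or mast cell-like classes. In dendritic cell-like cells Hspa1a had 24 UMIs (12.0 CPM) in the knockout and 159 (68.8 CPM) in the control. In megakaryocyte progenitor-like cells it had 4 UMIs (1.98 CPM) in the knockout and 63 (22.1 CPM) in the control, and Hspa1b had 5 and 109 UMIs. Those megakaryocyte values gave the lowest log2 ratios, -3.48 (-5.40 to -2.06) for Hspa1a and -3.95 (-5.60 to -2.69) for Hspa1b. That class depended on the clustering: at resolutions 0.5 and 2 the cluster of that name held 9 and 8 knockout cells and 33 control cells each time, and by marker gates the ratios were -1.08 and -0.60. The share of measured genes at least 1.5-fold lower was 2.84% there, 2.72% in dendritic cell-like, 0.513% in hematopoietic stem cell-like and 0.937% in multipotent-like cells. It was 0.457% in neutrophil progenitor-like, 0.665% in maturing neutrophil-like, 0.504% in monocyte progenitor-like and 0.65% in basophil or mast cell-like cells.

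The multipotent-like class was the exception. Hspa1a had 189 UMIs (10.3 CPM) in the knockout and 168 (11.0 CPM) in the control. Hspa1b had 349 UMIs (19.0 CPM) in the knockout and 214 (13.9 CPM) in the control, a log2 ratio of 0.45 (0.20 to 0.70). That value depended on how the cells were clustered: with other clusterings or per-cell marker gates it ran from -2.64 to -0.55. In monocyte progenitor-like cells Hspa1b had 31.1 CPM in the knockout and 35.3 CPM in the control, while Hspa1a had 17.5 and 41.2 CPM.

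Few cells carried much of this signal. The 67 knockout cells with most Hspa1a UMIs, 1% of the library, held 38.6% of them, and the corresponding 81 control cells 24.0%. For Hspa1b the shares were 32.1% in the knockout and 19.8% in the control. After thinning, 3.27% of knockout cells and 8.02% of control cells had an Hspa1a UMI (8.75% and 20.2% unthinned), and 5.46% and 9.04% had an Hspa1b UMI (13.1% and 23.2% unthinned). In hematopoietic stem cell-like cells, where the gene was lowest in the control among compared classes, the thinned Hspa1a share was 0.756% in the knockout and 2.03% in the control, at median depths of 13080 and 11533 UMIs. Free RNA in droplets also gives such UMIs, and its part in these shares was not tested.

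Genes induced by tissue handling were slightly lower too. Of 15 immediate early genes, 12 were below 0 and none reached 1.5-fold, with a median log2 ratio of -0.12 over all cells. Fos, the lowest, had 600 CPM in the knockout and 752 CPM in the control (log2 -0.33). The median of that list was lowest, -0.29, in the multipotent-like class and highest, -0.0030, in megakaryocyte progenitor-like cells. In each of these classes 2 of 15 measured genes were at least 1.5-fold lower, against 0.937% and 2.84% of all measured genes. In dendritic cell-like cells 2 of 14 were, against 2.72%, and in the other compared classes none was. The part of handling in the HSP70 difference was not tested.

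Hspa8, the constitutive HSC70, was by far the most abundant HSP70 gene, with 2203 CPM in the knockout and 1982 CPM in the control (log2 0.15). Hspa8 outnumbered Hspa1b by 118 UMIs to 1 in the knockout and 75.5 to 1 in the control. Its lowest class ratio was -0.28 in megakaryocyte progenitor-like cells and its highest 0.34 in multipotent-like cells, with 5 intervals above 0 and 3 below. The multipotent-like value was -0.26 when predicted doublets were kept and -0.23 at a coarser clustering, and the megakaryocyte value was 0.18 by marker gates. In cells of 10000 to 20000 UMIs the ratio of Hspa8 was -0.085, and above 40000 UMIs 0.26. Of its 3′ words, 68.6% recur elsewhere, chiefly in the pseudogene Gm15459, so its absolute level is uncertain.

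The distribution of Hspa8 over cells differed more than its mean. In thinned cells the median was 8 UMIs in the knockout and 9 in the control, but the 90th percentile was 19 and 15 UMIs and the 99th 32 and 22. The Fano factor of Hspa8 was 4.45 in the knockout and 2.22 in the control. Hsp90aa1 also spread more widely, at 3.55 and 2.03.

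A tail of cells rich in Hspa8 was larger in the knockout and uneven between classes. More than 22 Hspa8 UMIs, the 99th percentile of control cells and a limit set after seeing the values, were found in 280 of 5513 knockout cells, 5.08% (4.51% to 5.69%), and in 72 of 7769 control cells, 0.927% (0.726% to 1.17%), by exact binomial intervals. Monocyte progenitor-like cells had 11.1% in the knockout and 1.57% in the control, and dendritic cell-like cells 17.8% and 2.26%. Multipotent-like cells had 5.03% in the knockout and 0.635% in the control, and neutrophil progenitor-like cells 3.82% and 0.469%. Early erythroid-like cells had 15.9% (17 of 107) in the knockout and 6.85% (5 of 73) in the control, with overlapping intervals. Intervals also overlapped in basophil or mast cell-like cells, at 2.92% and 1.53%, and in unnamed cells, where the knockout share was the lower, at 0.590% and 0.805%. No such cell was seen among 529 hematopoietic stem cell-like knockout cells, which allows a share of up to 0.567% by a limit of 3 counts (0.695% by the exact interval), and 1 of 691 was seen in the control. Maturing neutrophil-like and megakaryocyte progenitor-like cells had none in either library.

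**Figure D3:**
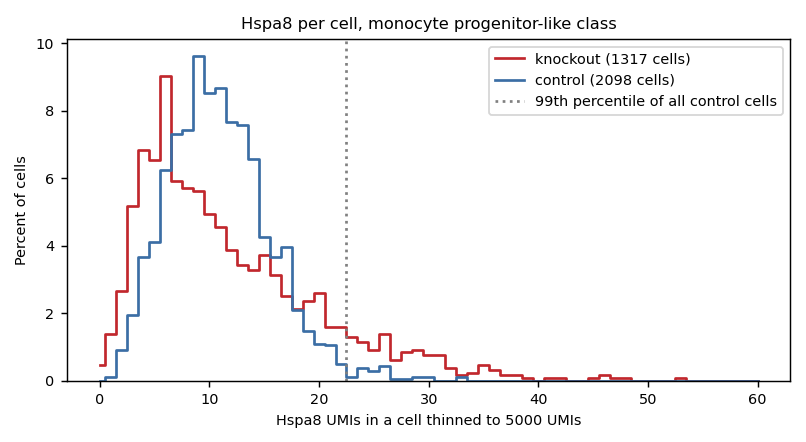
Percent of monocyte progenitor-like cells (y axis) by Hspa8 UMIs after thinning to 5000 UMIs per cell (x axis), for 1317 knockout and 2098 control cells. The knockout curve peaks at fewer UMIs than the control curve and extends further right of the dotted line, the 99th percentile of all control cells.

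Depth differed with the tail. Among monocyte progenitor-like cells of 20000 to 40000 UMIs the share was 9.48% in the knockout and 1.76% in the control, and above 40000 UMIs 20.1% and 3.09%. The tail cells of the knockout had a median of 33146.5 UMIs before thinning and those of the control 28371.5. Cells beyond 40000 UMIs numbered 496 in the knockout and 226 in the control, and the part of undetected doublets among them was not tested.

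Other inducible chaperones were high in the same cells. In knockout monocyte progenitor-like cells, the 146 cells of the tail had 3191 CPM of Hsp90aa1, against 1686 CPM in the other 1171. After thinning, Hsph1 averaged 1.06 in the tail and 0.338 in the others, and Hspa1b 0.521 and 0.110. On the full counts the largest log2 differences among 3115 genes were 2.15 for Hspa1b, 1.97 for Hspa1a and 1.64 for Hsph1. Hspa8, which defined the tail, came next at 1.37. The HSP110 paralogue Hspa4l followed at 1.18, and the J-domain gene Dnaja1 reached 0.85. Ahsa1 was 0.67 higher. Genes that are no chaperones were among the leaders too, among them replication histone genes such as Hist1h3c (1.07), Gclm, a subunit of the enzyme for the first step of glutathione synthesis (1.03), and the thioredoxin reductase gene Txnrd1 (0.85).

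The 33 control monocyte progenitor-like cells of the tail shared part of this. On the full counts they had 2268 CPM of Hsp90aa1, against 1505 CPM in the other 2065 control cells, and 92.2 CPM of Hsph1, against 66.2 CPM. Hspa1a had 114 CPM in the control tail and 39.8 CPM in the others (log2 1.52), and Hspa1b 50.1 and 35.0 CPM (log2 0.52, interval 0.082 to 0.92). In the control too, Hspa1a and Hspa1b reached the floor of that comparison only in the tail. All these are cells of 1 library per genotype and are given as a description.

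**Figure D4:**
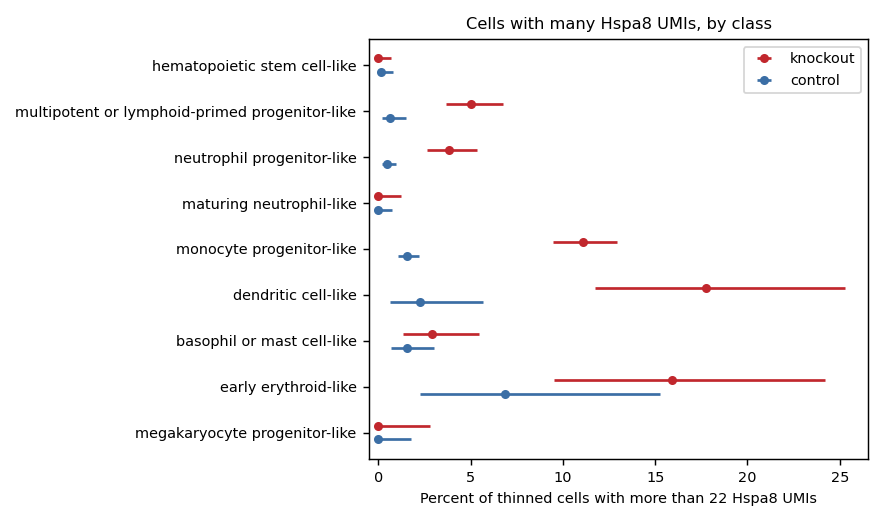
Percent of thinned cells with more than 22 Hspa8 UMIs (x axis) in 9 classes, knockout above control, with exact 95% binomial intervals. The shares are 17.8% and 2.26% in dendritic cell-like and 11.1% and 1.57% in monocyte progenitor-like cells, and 0% in the knockout stem cell-like class.

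Of the HSP70 partners, Hsph1 was higher and Dnajb1 lower in the knockout. Hsph1, the HSP110 exchange factor, had 10981 UMIs, or 79.4 CPM, in the knockout and 9978 UMIs, or 59.9 CPM, in the control, a log2 ratio of 0.41 (0.37 to 0.44). That ratio differed with depth: it was 0.013 (-0.088 to 0.11) at 10000 to 20000 UMIs and -0.28 (-0.73 to 0.19) below 5000 UMIs. At 5000 to 10000, 20000 to 40000 and above 40000 UMIs Hsph1 had 0.54, 0.28 and 0.44. Its interval lay above 0 in 4 of 8 classes, and it reached 1.5-fold in the multipotent-like class, with 88.0 CPM in the knockout and 58.4 CPM in the control (log2 0.59), where 1.1% of measured genes did so. In that class the ratio was -0.25 when predicted doublets were kept and the cells clustered again, and -0.23 at a coarser clustering.

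Dnajb1, an HSP40 that loads clients onto HSP70, had 70.4 CPM in the knockout and 76.7 CPM in the control (log2 -0.13). The ratio was below 0 in 8 of 8 classes, but with its whole interval in 5. It ran from -0.35 in hematopoietic stem cell-like cells, with 101 CPM in the knockout and 130 CPM in the control, to -0.072 in neutrophil progenitor-like cells. Under other settings Dnajb1 reached 0.0145 in neutrophil progenitor-like and 0.021 in maturing neutrophil-like cells. Its order of classes differed from that of HSP90: stem cell-like cells had the highest control level of any class and maturing neutrophil-like cells the lowest, 45.8 CPM. None of the 12 neighbouring classes in either library had separate intervals for Dnajb1.

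The chaperonin pair differed little between genotypes. Hspd1 (HSP60) and Hspe1 (HSP10), which form the folding chamber of the mitochondrial matrix and its lid, lie head to head on chromosome 1, at chr1:55077835-55088243 on the minus strand and chr1:55088132-55091307 on the plus strand, with RefSeq starts 95 bases apart. Hspd1 had 457 CPM in the knockout and 462 CPM in the control (log2 -0.014, with an interval that spans 0), and Hspe1 had 568 and 611 CPM (log2 -0.11). Hspe1 was below 0 in 8 of 8 classes with its whole interval, with the lowest ratio, -0.31, in maturing neutrophil-like cells, and Hspd1 in 5. The sign turned with depth over all cells. In cells of 5000 to 10000 UMIs the log2 ratio was 0.14 for Hspe1 and 0.18 for Hspd1. At 10000 to 20000 UMIs it was -0.40 and -0.28, at 20000 to 40000 UMIs -0.23 and -0.13, and above 40000 UMIs 0.049 and 0.044.

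Again the erythroid-like cells stood highest, with 1129 CPM of Hspd1 in the knockout and 876 CPM in the control, and 1547 and 1123 CPM of Hspe1. Dendritic cell-like cells had 131 CPM of Hspd1 in the knockout and 165 CPM in the control. The UMI ratio of Hspe1 over Hspd1 was 1.24 in the knockout and 1.32 in the control over all cells, and the CPM of the pair correlated at 0.92 over the 16 class sums. For Hspe1 53.2% of 3′ words and for Hspd1 29.8% recur in other genes, so their levels depend on how such reads were assigned.

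The full 3-unit heat shock element, GAANNTTCNNGAA or TTCNNGAANNTTC on either strand, was found near 2 of the 7 members with a promoter in the table. These are shown because they hold the longest matches, 30 bases each, with the 2-unit and 3-unit matches in capitals (RefSeq, GRCm38.p6; Hspe1 chr1:55088053-55088082 plus strand, Hsph1 chr5:149636287-149636316 minus strand).
Hspe1: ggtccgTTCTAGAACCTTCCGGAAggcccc
Hsph1: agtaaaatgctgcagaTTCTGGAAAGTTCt
Of all 32851 windows, 0.603% hold a 3-unit match. The windows of Ahsa1, Dnajb1 and Hspd1 hold neither form, which says only that these letters are not in 300 bases there. That of Ahsa1, chr12:87266478-87266777, begins beside the gene start given above, so almost no sequence before that start was searched. The Hspe1 element shown lies within the Hspd1 gene but outside the Hspd1 window, chr1:55088194-55088493. The antioxidant response element, TGACNNNGC on either strand, matched 2 times in the Hsph1 window and 1 time in that of Dnajb1, and is in 12.4% of windows. Hsp90aa1, Hsp90ab1 and Hspa8 were not analysed here for motifs.

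Other measured genes of the pathway stayed within 1.5-fold over all cells. Of 15 measured HSP90 co-chaperones and paralogues none was at least 1.5-fold apart, from Ppid, a peptidyl-prolyl isomerase, at -0.17 to Stip1, the adaptor that links HSP70 to HSP90, at 0.24, with a median of 0.016. Among them Ptges3, the p23 that steadies closed HSP90, had 311 CPM in the knockout and 264 CPM in the control (0.23), and Cdc37, which brings kinases to HSP90, 216 and 221 CPM (-0.032). Ahsa1 therefore differed by more than any co-chaperone of that list.

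The HSP70 side spanned a wider range. Among 7 measured HSP70 and HSP110 paralogues the endoplasmic reticulum gene Hspa5 was lowest, with 885 CPM in the knockout and 1143 CPM in the control (-0.37), and Hspa4l highest (0.34). Hspa2, below the limit for measured genes and named after its values were seen, had 1097 UMIs in the knockout and 2169 in the control (log2 -0.72, interval -0.82 to -0.61). Of 10 measured exchange factors and other HSP70 co-chaperones, the highest was St13, which binds HSP70 in its ADP state (0.34), and the lowest Grpel1, the mitochondrial exchange factor (-0.33). Of 20 measured J-domain genes none reached 1.5-fold (median -0.012), from Dnajc19 at -0.26 to Dnajc13 at 0.28. The 14 genes of the chaperonin TRiC and prefoldin (median 0.035) lay between Pfdn6 at -0.19 and Cct6a at 0.12. Of 12 measured mitochondrial quality control genes (median 0.065), the protease gene Spg7 was highest at 0.34 and Grpel1 lowest. The heat shock factor gene Hsf1 had 30.5 CPM in the knockout and 29.3 CPM in the control (0.058), Hsbp1, which encodes a heat shock factor binding protein, was at -0.093, and none of 6 small heat shock protein genes was measured.

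Across the class sums of both libraries the members formed more than one pattern. Hsp90ab1 followed Hspd1 (Pearson 0.89 over the 16 class sums) and Hsp90aa1 followed Hsph1 (0.85). For Ahsa1 and Hspa1a the value was -0.44. It takes in the genotype ratios already given, since Ahsa1 was higher and Hspa1a lower in the knockout in 8 of 8 classes. Correlations within 1 library were not computed. Among 3814 genes, the closest to the mean of Hsp90aa1, Hsp90ab1 and Ahsa1 was the proteasome gene Psmd1 (0.98), and Vcp was also among the closest (0.92). For Hspd1 and Hspe1 it was Idh3a (0.98), and for Hspa8, Hsph1 and Dnajb1 it was Hmgn1 (0.95). These correlations are descriptions over sums that share libraries, depth and cells.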

How the data were processed

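The deposited files hold raw UMI counts per gene and barcode for each library; per the labels' protocols the libraries were 10x 3′ v3.1, and per the submitters' processing notes the authors used Cell Ranger 6.1.2 and mm10. Barcodes needed at least 500 genes and under 10% mitochondrial UMIs. Scrublet scores above 0.433 were removed as doublets (66 knockout, 146 control); that limit, set automatically in the control, was applied to both after the automatic knockout limit marked 52. Cells of both libraries were clustered together (scanpy 1.11.5, Leiden, resolution 1, 2000 variable genes, 30 components) without the members, other listed chaperones, selenoprotein, sex-linked, mitochondrial or ribosomal genes. Clusters were named from marker lists, with naming limits set after the clusters were seen. UMIs were summed per library and class and scaled to the class's total over every gene; intervals are exact Poisson, exact conditional binomial for ratios and Clopper-Pearson for shares (scipy 1.17.1), and cover counting error only. The interval code was checked on simulated data.

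All members are named, with the highest and lowest gene of each pathway list and genes among the 3 closest in pattern to each member group (some genes are not reported here); Ptges3, Cdc37, Hsf1, Hspa2, the genes beside Ahsa1, Gm49207 and the leaders of the Hspa8 tail were chosen after their values were seen. The members and lists were chosen with earlier results of these data known. Positions are from GENCODE M21 (GRCm38, the same assembly as mm10), which matched 10 of 10 members; promoters are from RefSeq (GRCm38.p6). Alternatives covered scaling, cell filters, depth, cell weighting, clustering, marker gates, floors and thinning.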

Additional observations from a re-analysis of the deposited data

Results flagged for a closer look

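Hsp90aa1, Hsp90ab1, Hspa1b and Hspa8 had counting intervals on both sides of 0 in different cell classes. The differences between classes were not tested, since each class has 1 library per genotype. The log2 ratio, knockout over control, of Hsp90aa1 was 0.31 in monocyte progenitor-like and -0.14 in dendritic cell-like cells, and that of Hsp90ab1 was 0.36 in dendritic cell-like and -0.12 in maturing neutrophil-like cells. Hspa1b had 0.45 in multipotent-like and -3.95 in megakaryocyte progenitor-like cells, and Hspa8 had 0.34 and -0.28 in the same classes. The positive values of Hspa1b and Hspa8 in the multipotent class changed sign under other clusterings. By marker gates, Hsp90aa1 was 0.22 in dendritic cell-like and Hspa8 0.18 in megakaryocyte progenitor-like cells, so those negative values changed sign too.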

How the results depend on the processing

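No paired analysis was possible because each genotype has 1 library; for the same reason no library could be left out. Over all cells only Hspd1, whose interval spans 0, changed sign. Counting intervals are tight, so small shifts leave them. With median-of-ratios scaling, which moved every gene down, the log2 ratios were 1.04 for Ahsa1, 0.17 for Hsp90aa1, 0.051 for Hsp90ab1, 0.068 for Hspa8, 0.32 for Hsph1, -0.57 for Hspa1b, -0.21 for Dnajb1, -0.10 for Hspd1 and -0.19 for Hspe1. With the stricter cell filter (1000 genes, 5% mitochondrial) they were 1.18 for Ahsa1, 0.32 for Hsp90aa1, 0.15 for Hsp90ab1, 0.21 for Hspa8, 0.49 for Hsph1, -1.23 for Hspa1a, -0.30 for Hspa1b, -0.081 for Dnajb1, 0.046 for Hspd1 and -0.043 for Hspe1. In cells of 10000 to 40000 UMIs they were 1.03 for Ahsa1, 0.13 for Hsp90aa1, 0.079 for Hsp90ab1, 0.073 for Hspa8, 0.26 for Hsph1, -0.58 for Hspa1b, -0.12 for Hspd1 and -0.23 for Hspe1. As the mean of class ratios they were 1.01 for Ahsa1, 0.072 for Hsp90aa1, 0.097 for Hsp90ab1, 0.064 for Hspa8, 0.22 for Hsph1, -1.80 for Hspa1a, -1.34 for Hspa1b, -0.18 for Dnajb1, -0.13 for Hspd1 and -0.23 for Hspe1. With cells weighted equally they were 0.20 for Hsp90aa1, 0.082 for Hsp90ab1, 0.13 for Hspa8, 0.31 for Hsph1, -0.043 for Hspd1 and -0.13 for Hspe1. Without mitochondrial genes they were 0.27 for Hsp90aa1, 0.14 for Hsp90ab1 and 0.16 for Hspa8, and without the low-UMI cluster, a choice made after seeing the data, Hsp90ab1 had 0.14. At a floor of 100 CPM, which no library reaches for Ahsa1 or Hspa1a, 0 members were 1.5-fold higher and 0 lower.

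Within classes 28 values changed sign, counting only ratios whose interval excluded 0 or that reached 1.5-fold. Ratios with an interval spanning 0 changed sign too and are not in that count. Hsph1 in dendritic cell-like cells, for instance, ran from -0.33 to 0.51. In hematopoietic stem cell-like cells Hsp90aa1 had 0.022 with doublets kept and 0.018 at resolution 2, Hsp90ab1 had 0.14, 0.034 and, by marker gates, 0.029, and Hspa8 had 0.18, 0.098 and 0.13. In multipotent-like cells, Hsp90aa1 had -0.099 with doublets kept, -0.11 at resolution 0.5 and -0.012 at resolution 2; Hspa1b had -1.78, -2.64, -1.64 and, by gates, -0.55; Hspa8 had -0.26 with doublets kept and -0.23 at resolution 0.5, and Hsph1 -0.25 and -0.23. Median-of-ratios scaling gave -0.082 for Hsp90ab1 in neutrophil progenitor-like and -0.052 for Hsp90aa1 in maturing neutrophil-like cells. The stricter filter gave 0.10 for Hspa1b in monocyte progenitor-like cells. Marker gates gave 0.22 for Hsp90aa1 in dendritic cell-like and 0.18 for Hspa8 in megakaryocyte progenitor-like cells. In basophil or mast cell-like cells resolution 2 gave -0.037 for Hsp90aa1, -0.12 for Hspa8 and -0.091 for Hsph1, and Hspa8 had -0.061 with doublets kept. Keeping doublets also meant a new clustering. The cause of these shifts was not tested.

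The share of knockout cells in the Hspa8 tail was 6.07% with the stricter filter (control 1.02%), 4.27% at 10000 to 40000 UMIs (control 0.920%), 5.79% with another thinning seed (control 0.747%) and 7.25% when cells were thinned to 10000 UMIs (control 0.905%); these settings were chosen after seeing the data.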
